A study of Mus musculus with 24 samples.

Results

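The genes described here are 9 transcription factors of neurogenesis in the subventricular zone: the homeobox genes Dlx1, Dlx2, Dlx5 and Dlx6, the zinc finger genes Sp8 and Sp9, and the HMG-box genes Sox2, Sox11 and Sox4. They were taken by symbol from the 54235 features of the deposited tables, and all 9 were present. Their levels were compared across astrocyte, cycling progenitor, neuroblast and mature neuron states of the mouse dorsal striatum. The data were single-cell 3′ RNA counts from mice of the genotype Arc-CreER::Ai9. In these mice CreER is under the Arc promoter, and neurons active around a dose of 4-hydroxytamoxifen (4-OHT) switch on a red reporter. Mice had practised a forelimb reaching task for 2 days (early) or 8 days (late), and control mice received 4-OHT with no training. All tissue was taken 3 days after labelling. Each hemisphere was pooled from 2 mice, marked M and F, and each stage had 2 pools. Matched motor cortex libraries came from Fos-CreER::Ai9 mice, so region and driver line cannot be told apart. The ages of the mice are not given in the labels. Control replicate 1 of the striatum rests on its left hemisphere, since the right was not analysed here.

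In the adult subventricular zone, astrocyte-like stem cells give rise to dividing transit-amplifying progenitors, which produce neuroblasts that migrate along the rostral migratory stream and become GABAergic interneurons of the olfactory bulb. Sox2 maintains neural stem and progenitor cells, Dlx genes drive the GABAergic fate in the ventral forebrain, Sp8 and Sp9 act in the differentiation of neurons from the ganglionic eminences and their adult remnant, and Sox4 and Sox11 switch on neuronal genes in newly formed neurons. In the mature striatum, D1 and D2 spiny projection neurons are the main neuron classes, and Sp9 is known for its role in D2 neurons.

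Dlx1 lies at chr2:71528113-71533981 on the plus strand and Dlx2 at chr2:71543408-71546754 on the minus strand (GRCm38, GENCODE M21), with 9.43 kb and no protein-coding gene between them. Dlx6 (chr6:6863334-6868568, plus strand) and Dlx5 (chr6:6877805-6882085, minus strand) form a second such pair, 9.24 kb apart. Sp9 lies at chr2:73271925-73284706, Sp8 at chr12:118846329-118852576 and Sox2 at chr3:34650405-34652461, each on the plus strand. Sox11 lies at chr12:27334264-27342574 and Sox4 at chr13:28948919-28953713, both on the minus strand. Dlx1 is covered over its whole length by the antisense gene Dlx1as, Dlx6 by Dlx6os1, and Sox2 lies within Sox2ot, which runs on the same strand. Sp9 shares 1602 bases with Cir1 and Sox4 shares 2753 bases with Gm26735, both on the opposite strand. These partners were counted as features of their own. The strand used in counting is not given in the sources used here, and how reads in the shared stretches were assigned was not checked.

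Promoter sequence was read from RefSeq (GRCm38.p6) as the 250 bases before the start, and 7 of the 9 genes matched. The windows of Dlx2, Sp9 and Sox11 are shown, 1 gene of each family, as examples that hold a GC box and whose genes were low in astrocyte-like cells and high in progenitors and neuroblasts. Capitals mark the GC box, searched as GGGCGG on both strands and known as the site of Sp family factors. The lines run 5′ to 3′ on the strand of the gene, and the windows are chr2:71546755-71547004 (minus strand), chr2:73271676-73271925 (plus strand) and chr12:27342719-27342968 (minus strand).
Dlx2: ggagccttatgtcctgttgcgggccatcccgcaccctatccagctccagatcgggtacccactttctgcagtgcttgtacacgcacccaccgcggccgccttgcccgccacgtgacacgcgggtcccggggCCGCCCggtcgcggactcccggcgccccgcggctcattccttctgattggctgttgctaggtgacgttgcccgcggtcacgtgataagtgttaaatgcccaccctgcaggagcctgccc
Sp9: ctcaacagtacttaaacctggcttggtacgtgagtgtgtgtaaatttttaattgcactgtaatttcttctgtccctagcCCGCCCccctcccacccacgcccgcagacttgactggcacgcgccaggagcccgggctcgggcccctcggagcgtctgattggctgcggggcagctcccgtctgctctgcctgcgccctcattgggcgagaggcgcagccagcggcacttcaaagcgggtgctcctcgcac
Sox11: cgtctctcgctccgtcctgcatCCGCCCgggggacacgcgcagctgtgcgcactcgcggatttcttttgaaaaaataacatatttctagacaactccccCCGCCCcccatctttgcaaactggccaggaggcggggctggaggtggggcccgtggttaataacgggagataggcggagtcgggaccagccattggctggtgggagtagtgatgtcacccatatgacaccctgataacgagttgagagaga
The GC box lay 119 bases before the start of Dlx2, 171 bases before that of Sp9, and 228 and 151 bases before that of Sox11. Of the 7 genes, Sox2 also held it, as did 1 of the 3 windows of Sp8, and Dlx1 and Sox4, which were higher in the same states, did not. Of 32851 promoter windows of this length, 32.7% held it. G and C made up 66.4% of the Dlx2 window, 62.4% of the Sp9 window and 58.0% of the Sox11 window, against a median of 52.4% over all windows. A match of letters is a description of the window and not of binding.

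The striatal libraries held 16837066 to 23677020 UMIs (unique molecule counts) each before cells were filtered, and 50627 striatal cells remained afterwards. Cells were clustered without the 9 genes and named from markers that include none of them. This gave 3331 astrocyte-like, 2712 cycling progenitor-like, 5342 neuroblast-like, 19283 spiny projection neuron-like and 1869 GABAergic interneuron-like cells. The markers that gave the names stood as follows: the median level of the astrocyte glutamate transporter Slc1a2 was 8098 CPM (UMIs per 1000000) in the first state, that of Top2a, an enzyme of dividing cells, was 1644 in the second against 6.63 and 10.5 in astrocyte-like and neuroblast-like cells, and that of Dcx, a microtubule protein of migrating neurons, was 1261 in the third. Dcx was also at 257 in cycling progenitor-like cells, against 4.97 in astrocyte-like cells. The cycling progenitor-like clusters all had the neuroblast markers Dcx and Igfbpl1 too, so dividing neuroblasts were not separated from other dividing progenitors. Ppp1r1b stood at 1781 in spiny projection neuron-like cells and Lhx6 at 397 in interneuron-like cells. Levels below are in CPM, from UMIs summed over all cells of a state in 1 pool, and ranges are over 6 pools. UMIs are counted from the 3′ end of a transcript, and levels were compared between states and not between genes. CPM is a share of the UMIs of a state and not an amount per cell, which was not compared. Median UMIs per cell were 1969 in astrocyte-like, 3692 in cycling progenitor-like and 1642 in neuroblast-like cells. They were 4357 in spiny projection neuron-like and 7021 in interneuron-like cells.

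The share of cell barcodes that libraries had in common split the pools into 2 classes, called A and B here. The labels name kits of version 2 or 3, and which library had which is not given. Control replicate 1 and late replicate 1 were class A and the other 4 striatal pools class B. By the labels the class A pools were also the pools of 1 sequencing flow cell, so in striatum the class and that flow cell cannot be told apart. Median UMIs per cell were 1970 to 2128 in class A libraries and 2705 to 3942.5 in class B. Several of the 9 genes stood apart by class, most plainly in neuroblast-like cells, where Dlx2 was at 543 and 593 in the class A pools and at 276 to 383 in class B, and Sox11 at 2096 and 2206 against 2892 to 3866. The part of the class in these differences was not tested, and since no early pool was class A, stage comparisons carried the class as a term.

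From astrocyte-like to cycling progenitor-like cells, 8 of the 9 genes were higher in all 6 pools, and Sox2 alone was lower. Of 12395 genes with a mean of at least 5 CPM in either state, 29.3% were higher in all 6 pools and 36.1% lower. From cycling progenitor-like to neuroblast-like cells, 7 of the 9 were higher again in every pool (4 with a stricter cell filter, without Dlx1, Dlx2 and Sox11), against 28.3% of 11542 genes, and Dlx6 and Sox2 moved up in 4 pools and down in 2. From neuroblast-like to spiny projection neuron-like cells, 8 were lower in every pool, against 29.4% of 12311 genes, and Dlx6 alone was higher, as were 45.5% of all. From neuroblast-like to interneuron-like cells 8 were lower (7 with the stricter filter, without Sox2), against 29.2% of 12320 genes, and Dlx6 was higher in 1 pool and lower in 5. These are descriptions without a test, because states of 1 pool share their mice and libraries and were separated by expression. The order of the states was set beforehand, and descent of 1 state from another was not tested. The mature neurons here are from striatal tissue, whereas neuroblasts of this zone are known to become olfactory bulb interneurons.

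**Figure D1:**
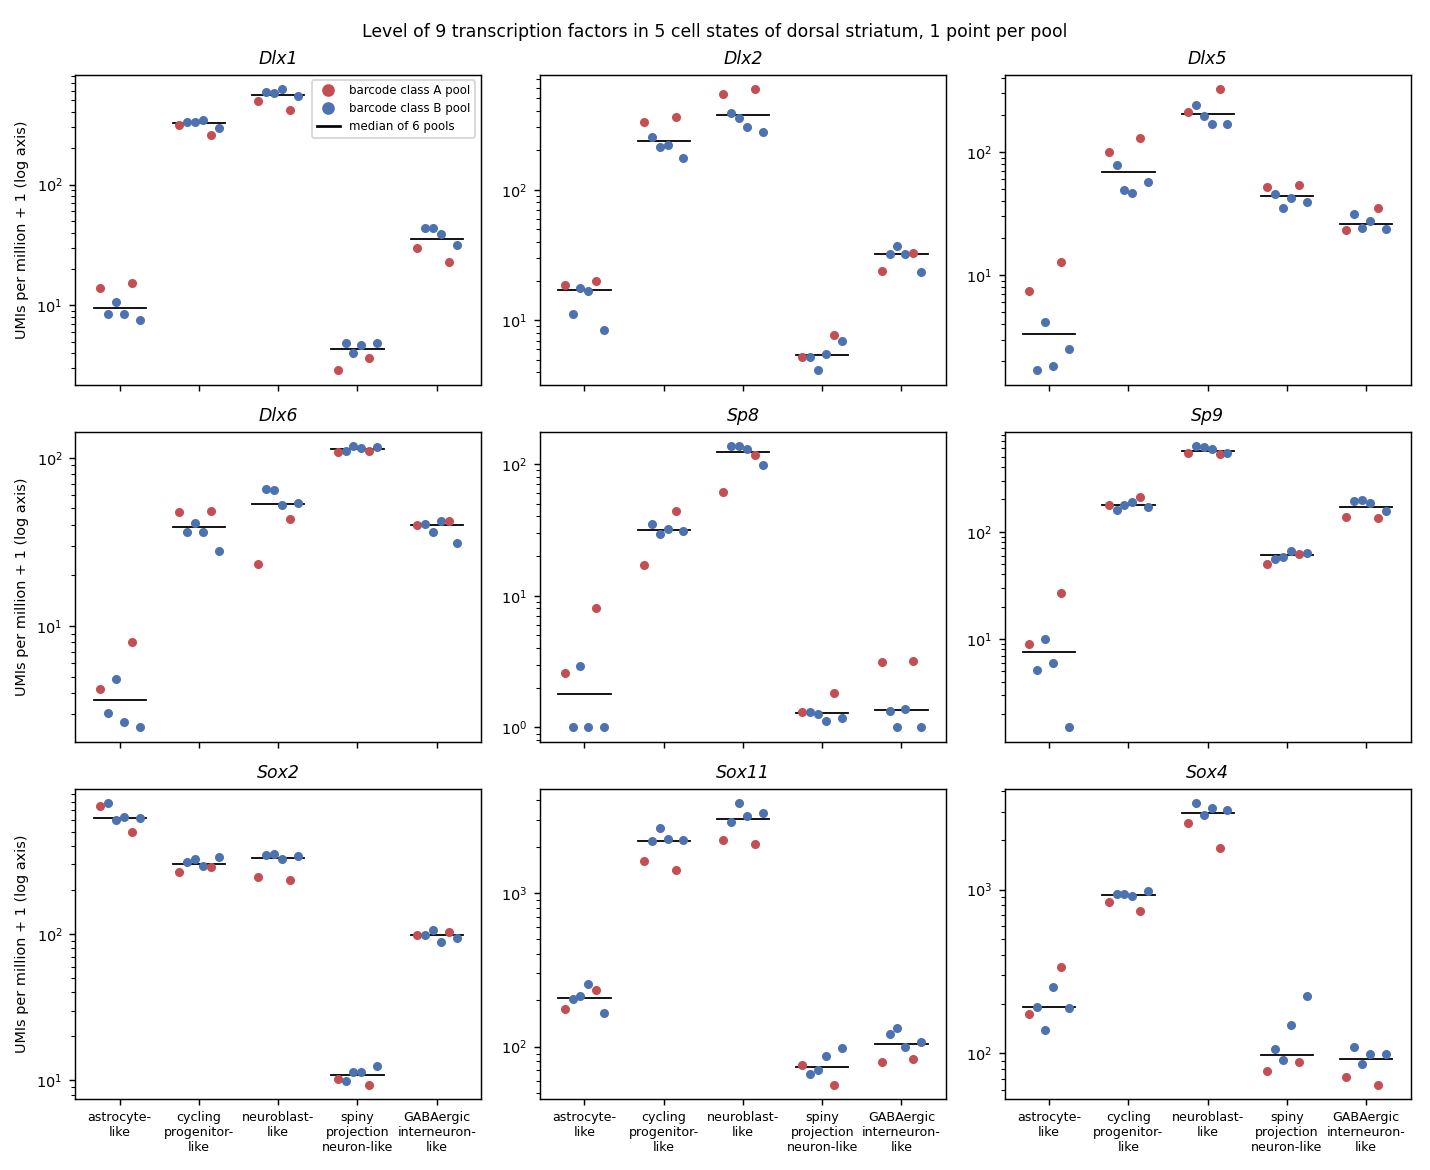
Level of each gene in 5 cell states of dorsal striatum, as CPM plus 1 on a log axis, with 1 point per pool (red, barcode class A, 2 pools; blue, class B, 4 pools) and the median of 6 pools as a line. Dlx1, Sp8, Sp9, Sox11 and Sox4 peak in neuroblast-like cells, Sox2 in astrocyte-like cells and Dlx6 in spiny projection neuron-like cells.

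Dlx1 and Dlx2, which act early in the Dlx cascade, were low in astrocyte-like cells and high in the dividing state. Dlx1 in astrocyte-like cells was 12.8 and 7.53 in the control pools, 9.55 and 7.53 in the early pools, and 14.2 and 6.48 in the late pools. In cycling progenitor-like cells it was 310 and 330 in control, 331 and 340 in early and 258 and 293 in late pools, between 18.2 and 45.2 times the astrocyte level of the same pool. Every pool of the dividing state lay far above every pool of the astrocyte-like state. In neuroblast-like cells Dlx1 was 495 and 585, 570 and 623, and 413 and 538 in the same order. That was 1.59 to 1.83 times the dividing level, and the ranges of the 2 states did not overlap. With cells of at least 1000 genes and 2000 UMIs, it was no longer higher in every pool.

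Dlx2 followed the same order with overlap at the top. It was 7.48 to 18.9 in astrocyte-like cells, 173 to 361 in cycling progenitor-like cells and 276 to 593 in neuroblast-like cells. Within each pool the neuroblast level was 1.40 to 1.69 times the dividing level, while the ranges across pools overlapped, with the class A pools highest in both states. In spiny projection neuron-like cells Dlx1 lay at 1.88 to 3.90 and Dlx2 at 3.14 to 6.71. Microglia-like cells, which serve here as a measure of free RNA, held 0.616 to 6.36 of Dlx1 in 5 pools, which overlaps, and 0.547 to 3.13 of Dlx2, which reaches the edge of the range in spiny projection neuron-like cells. In the sixth pool, late replicate 1, microglia-like cells held 17.7 for Dlx1 and 23.6 for Dlx2, above the astrocyte-like cells of that pool. Endothelial-like cells held Dlx2 at 0 to 6.21, from 5 UMIs in all, which overlaps the range in spiny projection neuron-like cells. Dlx1 and Dlx2 were measurable in interneuron-like cells at 21.7 to 42.9 and 22.5 to 35.9.

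Dlx5 and Dlx6, the second linked pair, were both present in mature neurons, Dlx5 below and Dlx6 above its neuroblast level in spiny projection neuron-like cells. Dlx5 was 0.684 to 11.8 in astrocyte-like cells, 45.3 to 129 in cycling progenitor-like cells and 168 to 326 in neuroblast-like cells, where it stood at 2.09 to 3.98 times the dividing level. It was at 34.1 to 53.4 in spiny projection neuron-like cells and 22.3 to 34.1 in interneuron-like cells, both above the 10.6 of its highest microglia-like pool. The ranges in the 2 mature states overlapped.

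Dlx6 was the only gene of the 9 with its highest level in a mature state. In spiny projection neuron-like cells it was 107 and 108 in control pools, 117 and 114 in early pools and 109 and 115 in late pools. In neuroblast-like cells it was 22.5 and 64.3, 63.0 and 51.3, and 42.0 and 52.5, so that every pool was below every pool of the mature state. Cycling progenitor-like cells held 27.0 to 47.1 and interneuron-like cells 30.1 to 40.9, which overlapped each other and the neuroblast range. Its antisense partner Dlx6os1 ran from 486 to 1400 in neuroblast-like cells.

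Sp8 was the member most restricted to the immature states. It stood at 16.1 to 42.7 in cycling progenitor-like cells and at 60.0 and 135, 137 and 128, and 115 and 97.4 in neuroblast-like cells of control, early and late pools, 2.69 to 4.80 times the dividing level. In the other named states it was near 0: 7 UMIs were counted in 3331 astrocyte-like cells and 11 in 1869 interneuron-like cells, and spiny projection neuron-like cells held 0.115 to 0.838. An unnamed cluster of 391 cells led by Vip and Calb2 held 17.4, over all its cells. Another unnamed cluster, of 1946 cells led by Foxp2 and Otof, held 6.53. Of all Sp8 UMIs in the striatum, 68.4% were in neuroblast-like and 21.5% in cycling progenitor-like cells.

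Sp9 had a neuroblast peak and a second site in mature neurons. It was 159 to 211 in cycling progenitor-like cells and 536 and 634, 615 and 586, and 529 and 542 in neuroblast-like cells, 2.51 to 3.99 times higher within a pool. Interneuron-like cells held 134 to 195 and spiny projection neuron-like cells 49.2 to 65.7. Splitting the latter into its named classes showed that nearly all of it was in the D2 class, marked by Drd2 and Penk. The 9092 D1 cells held 2.75 to 6.08, near the 1.23 to 4.48 of microglia-like cells outside late replicate 1. The 10191 D2 cells held 93.2 to 122. Outside these classes, an unnamed cluster of 1946 cells with the markers Drd1 and Tac1, led by Foxp2 and Otof, held 126 over all its cells. D2 cells were 18.5 to 41.8 times higher than D1 cells of the same pool. Sox2 was the other member whose D1 and D2 ranges did not overlap, at 2.75 to 4.47 in D1 and 13.6 to 17.3 in D2 cells, as was so for 3.76% of 11155 genes. Within pools, 5 of the 7 members that reached a mean of 5 CPM in either class were higher in D2 cells in all 6 pools, as were 10.6% of genes: Sp9, Sox2, Dlx2 (1.20 to 2.46 times), Sox11 (1.03 to 1.37) and Sox4 (1.40 to 1.89). Dlx5 was lower in D2 cells in all 6, at 0.778 to 0.961 times, as were 19.1% of genes. Dlx6 was alike in both, at 104 to 116 in D1 and 107 to 119 in D2 cells. Each class mixes clusters. Over all cells, the largest D2 cluster held Sox4 at 76.6 and Sox11 at 55.6, and the next, led by Nts and Egr4, held 272 and 124. The largest D1 cluster held 114 and 82.5, and the next 60.8 and 36.7. The part of this makeup in the differences between D1 and D2 cells was not tested. D2 cells held 30.1% of all Sp9 UMIs, close to the 32.5% in neuroblast-like cells.

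Sox2, the stem cell factor, ran in the opposite direction from astrocyte-like to cycling progenitor-like cells. It was 750 and 788 in the astrocyte-like cells of control pools, 597 and 625 in early pools and 493 and 617 in late pools. In cycling progenitor-like cells it was 266 and 310, 324 and 289, and 285 and 336, 0.355 to 0.577 of the astrocyte level. Neuroblast-like cells held 234 to 354, which overlapped the dividing state. Interneuron-like cells held 87.3 to 106 and spiny projection neuron-like cells 8.38 to 11.5, both below the neuroblast range. Other glia also held it, with medians of 387 in oligodendrocyte precursor-like, 430 in committed precursor-like and 429 in ependymal-like cells.

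Sox11 and Sox4, the factors of early neuronal differentiation, were on in both immature states. Sox11 was 164 to 253 in astrocyte-like cells, 1604 and 2165, 2646 and 2252, and 1413 and 2194 in cycling progenitor-like cells of control, early and late pools, and 2206 and 2892, 3866 and 3153, and 2096 and 3332 in neuroblast-like cells. The last step was 1.34 to 1.52 times within a pool and the ranges overlapped. Sox4 differed more at that step: 740 to 985 in cycling progenitor-like cells and 2534 and 3395, 2858 and 3133, and 1805 and 3047 in neuroblast-like cells, 2.44 to 3.64 times higher and without overlap. In spiny projection neuron-like cells Sox11 was 55.6 to 96.8 and Sox4 76.7 to 224. Sox4 was also at 136 to 182 in microglia-like cells over the 6 pools, inside its range in spiny projection neuron-like cells. Other glia held more of it, with medians of 385 in oligodendrocyte precursor-like, 584 in committed precursor-like and 352 in ependymal-like cells.

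The share of cells with a UMI was taken after thinning every cell to 1000 UMIs. Among neuroblast-like cells 90.3% held Sox11, 87.8% Sox4, 41.6% Sp9, 41.2% Dlx1 (58.5% before thinning), 29.9% Dlx2, 26.0% Sox2, 19.0% Dlx5, 11.0% Sp8 and 5.07% Dlx6. Among cycling progenitor-like cells the shares were 81.0% for Sox11, 55.0% for Sox4, 27.0% for Dlx1 (56.6% before thinning), 26.1% for Sox2, 23.0% for Dlx2, 18.7% for Sp9, 9.70% for Dlx5, 4.39% for Dlx6 and 3.84% for Sp8. Before thinning the 2 states differed both ways. Dlx2 was found in 51.1% of cycling progenitor-like and 44.3% of neuroblast-like cells, and Sp9 in 38.6% and 59.2%. Microglia-like cells gave 0.0601% to 1.78% for these genes other than Sox4, which was found in 11.7%. At least 1 Dlx gene was found in 67.6% of neuroblast-like, 47.7% of cycling progenitor-like, 14.8% of spiny projection neuron-like, 11.8% of interneuron-like, 2.13% of astrocyte-like and 1.20% of microglia-like cells. The median neuroblast-like cell held 3 of the 9 genes, the median cycling cell 2 and the median astrocyte-like cell 1.

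In the dividing state, cells with a UMI of some genes held a second one more often than cells without it. Of thinned cycling progenitor-like cells with Dlx1, 29.1% also held Dlx2, against 20.8% of those without Dlx1, in the same direction in 6 of 6 pools. This pair did not stand apart: cells with Dlx1 held Dlx5 in 14.3% against 7.98%, and Sp9 in 24.6% against 16.5%. Cells with Dlx5 held Sp9 in 36.5% against 16.8%, and Sp8 in 12.2% against 2.94%, again in 6 of 6 pools. In neuroblast-like cells the Dlx1 and Dlx2 pair was nearly even, 30.5% against 29.5% and higher in 4 of 6 pools. Other pairs there went both ways. Cells with Sox11 held Sox4 in 88.9% against 77.5%, higher in 6 of 6 pools. Cells with Dlx6 held Sox4 in 83.8% against 88.0%, higher in 1 of 6. Cells were cut to the same number of UMIs, and these shares describe the pools without a test.

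Levels also differed between clusters inside a state. Of the astrocyte-like clusters, one of 1256 cells led by Gfap, Thbs4 and Igfbp5 held median levels of Sox11 at 325 and Sox4 at 385. The largest astrocyte-like cluster, of 1729 cells, held Sox11 at 106 and Sox4 at 48.3 over the 5 pools with at least 20 of its cells. Class A pools gave 27.2% of the first cluster and 2.95% of the second, and the part of the class in this split was not tested. Dlx2 was 18.9 in the first and 6.04 in the second, and Sp9 stayed at 2.85 and 6.04. The remaining astrocyte-like cluster, of 346 cells with 84.7% from class A pools, held Dlx2 at 15.7, Sp9 at 17.7 and Sox11 at 86.5. These are levels over all its cells. An unnamed cluster of 1121 cells, led by Hes6, Mdk and Cdk6, held Egfr at 204 and Dcx at 110. It had Sox11 at 2116, Dlx1 at 251 and Dlx2 at 183, while Sp9 was 75.1, Dlx5 21.5 and Sp8 0.995. Of the neuroblast-like clusters, one of 3381 cells held Sox11 at 3410 and Sox4 at 2734. The other, of 1961 cells led by Adarb2 and Calb2, held Sox11 at 2452 and Sox4 at 3397, with Dlx1 at 546 against 540 and Sp8 at 119 against 118. Its smallest pool had 46 cells. Class A pools gave 30.5% of the first and 5.15% of the second, and 54.8% of the Hes6-led cluster, and the part of the class in these levels was not tested.

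**Figure D2:**
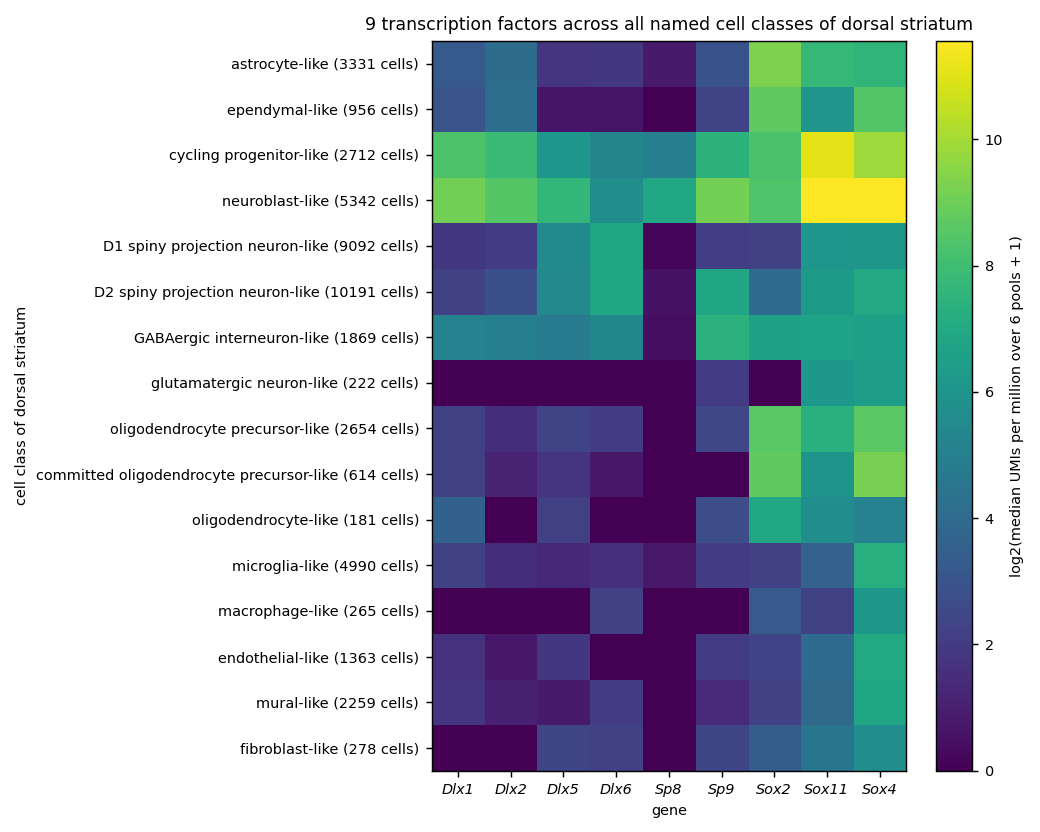
Median level over 6 pools, as log2 of CPM plus 1, of the 9 genes (columns) in the 16 named cell classes of dorsal striatum (rows). Sox11 and Sox4 are brightest in neuroblast-like cells, Dlx6 in both spiny projection neuron-like classes, Sp9 in neuroblast-like, cycling progenitor-like, interneuron-like and D2 cells, and Sox2 in astrocyte-like, committed oligodendrocyte precursor-like, ependymal-like and oligodendrocyte precursor-like cells.

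Across the 14 classes with enough cells in every pool, the mean log2 levels of Dlx1 and Dlx2 had a Pearson's r of 0.974, those of Dlx5 and Dlx6 of 0.917, although these 2 moved in opposite directions from neuroblast-like to spiny projection neuron-like cells, and those of Dlx1 and Dlx6 of 0.488. Classes share libraries, and these correlations are descriptions. Of 13239 genes, those outside the 9 with the pattern most like Dlx1 were Igfbpl1 (r = 0.965), Cdca7 (0.957) and the overlapping Dlx1as (0.946). Igfbpl1, a marker used to name neuroblast-like clusters, was also first for Sp8 (0.958). Dlx5 was most like Scrt2 (0.975), and Dlx6 like Dlgap3 (0.965), Bcl11b (0.962) and Gad2 (0.960). Bcl11b was a marker used to name spiny projection neuron-like clusters. The places of Igfbpl1 and Bcl11b are thus partly fixed by the naming of the classes. Sp9 was most like Gm42853 (0.940), Sox11 like Smarcc1 (0.969), Sox2 like Rimklb and Sox2ot (both 0.933), and Sox4 like Gm26735 (0.943), which overlaps it.

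Whether training changed these genes was tested within each state on pool sums, with edgeR's quasi-likelihood test over all genes and Benjamini-Hochberg adjustment. The p-values measure the spread between pools of 2 mice. By the labels these were run on 4 flow cells: control replicate 1 with late replicate 1, control replicate 2 with early replicate 1, and early replicate 2 and late replicate 2 each on its own. The part of the flow cell in a stage difference was not tested. None of the 9 genes was called in any of the 5 states at early against control, late against control or late against early, in 40 of 45 pairs of gene and state that could be tested each time. Over the 5 states, 0.037%, 0.0579% and 0.00805% of all genes tested were called, so calls were rare among all genes. Each stage had 2 pools, and the fit had 2 residual degrees of freedom. At an unadjusted p under 0.05, 3, 4 and 4 of the 40 pairs passed, where 5.34%, 6.04% and 7.27% of all genes did. DESeq2 also called none of the 9.

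In neuroblast-like cells the log2 changes of the 9 genes lay between -0.27 and 0.21 at early against control and between -0.32 and 0.07 at late against control, with standard errors of 0.14 to 0.24. Sox4 had the lowest of these, at -0.32 ± 0.16 (SE; edgeR quasi-likelihood, Benjamini-Hochberg adjusted p = 0.7949), its control pools standing at 2534 and 3395 and its late pools at 1805 and 3047, which overlap. In data simulated for late against control in neuroblast-like cells (10907 genes), 51% of genes changed by 1 log2 unit and 93% of those changed by 2 were recovered, so smaller changes could be missed. In cycling progenitor-like cells (11152 genes) the shares were 68% and 97%. Of the genes left unchanged in the simulation, 12 were called in neuroblast-like and 16 in cycling progenitor-like cells.

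The clearest unadjusted difference in the dividing state was in Dlx5. It was 99.95 and 78.1 in control, 48.5 and 45.3 in early and 129 and 56.6 in late pools, so both early pools were below all others. The 2 highest, control replicate 1 and late replicate 1, are the class A pools, and both early pools are class B, at 45.3 to 78.1. With the class as a term, the log2 change at early against control was -0.59 ± 0.21 (SE; edgeR quasi-likelihood, Benjamini-Hochberg adjusted p = 0.6733). Leaving out control replicate 1, late replicate 1 or late replicate 2 brought the adjusted p to 0.01306, 0.01361 and 0.01284. These are not separate results: with the class fitted, each leaves the 2 early pools against control replicate 2 alone (log2 -0.77 to -0.78), and the spread of that single control pool is taken from the other groups. The cycling progenitor-like clusters differ in their makeup by class too: over all their cells Dlx5 was at 91.7 in one drawn 75.7% from class A, at 86.0 in one drawn 33.4% and at 49.7 in one drawn 2.44%, and the part of this in the difference was not tested. Sp8 in neuroblast-like cells was called at early against control without control replicate 2, where it was 1.26 log2 units higher (adjusted p = 0.04151 in the same edgeR test), against 1 control pool at 60.0 whose spread is taken from the other groups.

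Sox2 in astrocyte-like cells was 750 and 788 in control pools and 493 to 625 in all 4 trained pools, without overlap. The state mixes clusters with Sox2 at 727, 540 and 804, of which 2.95%, 27.2% and 84.7% of cells came from class A pools, and 63.0% of the third from 1 pool. The part of this makeup was not tested. The log2 changes were -0.45 at early and -0.46 at late against control, the latter with an edgeR quasi-likelihood Benjamini-Hochberg adjusted p of 0.5328. Sox4 in spiny projection neuron-like cells was 87.4 and 224 in late pools against 76.7 and 105 in control and 89.5 and 147 in early pools, which overlap. The larger clusters of that state held Sox4 at 76.6 and 272 (D2) and at 114 and 60.8 (D1). Class A pools gave 41.6%, 21.8%, 29.8% and 42.1% of their cells, and the part of this makeup was not tested. The log2 change of Sox4 at late against control was 0.70 (adjusted p = 0.7826 in the same edgeR test). With all pools and no filter on low counts it was called at late against control (0.73, adjusted p = 3.437e-05, edgeR) and at late against early (0.74, adjusted p = 5.67e-05, edgeR), settings at which 529 and 606 genes were called over the 5 states. With the filter, a call at late against early appeared without early replicate 2, at 1.13 log2 units (adjusted p = 0.009419, edgeR), against 1 early pool whose spread is taken from the other groups.

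**Figure D3:**
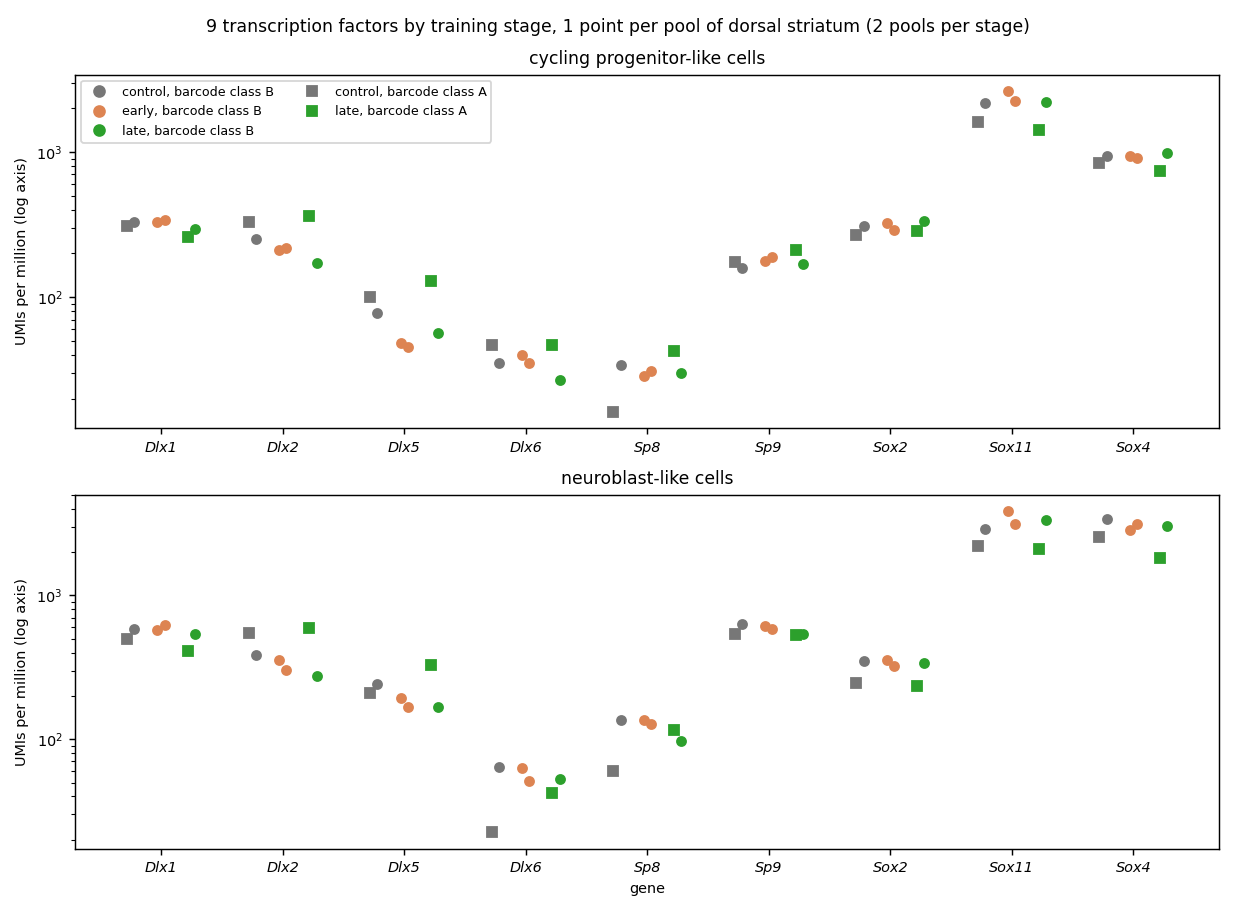
Level of each gene in cycling progenitor-like (top) and neuroblast-like cells (bottom) by stage, in CPM on a log axis, with 1 point per pool, 2 pools a stage, and squares for barcode class A. Points of class A stand apart from those of class B in both states for Dlx2, Dlx6, Sox2, Sox11 and Sox4, in cycling cells for Dlx5 and in neuroblast-like cells for Dlx1 and Sp9, and the early pools of Dlx5 in cycling cells, at 48.5 and 45.3, lie below the other pools.

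Few other genes of the pathway were called. Over the 5 states, none of 92 tests of stem cell and transit-amplifying regulators (Egfr, Hes5 and others) and none of 24 tests of GABA synthesis and transport genes was called in any stage comparison, with 16, 10 and 5 of the first and 0, 3 and 4 of the second under an unadjusted p of 0.05. Of 143 tests of neuroblast differentiation and migration genes, 1 was called, at late against control: Pbx3, a homeobox partner of Meis factors, was lower in neuroblast-like cells by a log2 change of -1.12 ± 0.16 (SE; edgeR quasi-likelihood, Benjamini-Hochberg adjusted p = 0.01914). With no class covariate, or with the replicate number as a block, no gene of the 5 states was called at late against control, Pbx3 included. None of 46 tests of striatal neuron transcription factors, 57 of other Sox and Sp genes and 13 of the antisense or overlapping transcripts was called. Unadjusted p-values under 0.05 in these 3 lists numbered 5, 7 and 4 at early against control, 3, 5 and 2 at late against control, and 12, 6 and 3 at late against early. In the neuroblast list they numbered 13, 13 and 20. All of these are to be read against the 5.34%, 6.04% and 7.27% over all genes.

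The reach uses 1 forelimb, and the hemispheres of the 4 trained pools were compared with the pool as a block. None of the 9 genes was called in 38 tests over the 5 states, against 0.0372% of all genes, with 2 under an unadjusted p of 0.05 (4.24% over all genes) and none called by DESeq2. In neuroblast-like cells the contralateral minus ipsilateral log2 changes lay between -0.05 and 0.15. Sox4 in astrocyte-like cells was lowest, at -0.46 ± 0.12 (SE; edgeR quasi-likelihood, unadjusted p = 1.583e-04, Benjamini-Hochberg adjusted p = 0.1795). Without late replicate 2 it was -0.60 with an adjusted p of 0.03708 in the same edgeR test. Dlx5 in cycling progenitor-like cells was at 0.36 (adjusted p = 0.9917). None of the 6 other lists held a called gene.

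Against motor cortex, 8 of the 9 genes were higher in dorsal striatum when all cells of a pool were summed, where 46.3% of 21683 genes were called, 24.2% of all as higher and 22.1% as lower. In such sums, more cells of a type and more RNA per cell cannot be told apart: neuroblast-like cells numbered 5342 of 50627 in striatum and 187 of 47985 in cortex. Dlx6 was at a median of 71.0 in striatum and 6.30 in cortex (log2 difference 3.39 ± 0.12 SE, edgeR quasi-likelihood, Benjamini-Hochberg adjusted p = 3.09e-09). Sox11 was at 409 and 45.3 (3.05 ± 0.11, adjusted p = 2.851e-09, edgeR). Sp9 stood at 87.9 and 11.2 (3.25 ± 0.22), Dlx5 at 44.0 and 6.41 (2.74 ± 0.22), Dlx2 at 50.1 and 8.34 (2.41 ± 0.23), Sox4 at 370 and 97.3 (1.80 ± 0.15) and Dlx1 at 61.7 and 29.6 (1.06 ± 0.15). Sox2, at 113 and 74.3 (0.63 ± 0.19, edgeR Benjamini-Hochberg adjusted p = 0.01679), lost its call without striatal control replicate 1 or late replicate 2 (adjusted p = 0.0507 and 0.05485). Sp8 did not pass, at 7.99 and 6.76 (0.33 ± 0.20, adjusted p = 0.1901, edgeR), and with the stricter cell filter the difference turned to -0.54. In the 187 neuroblast-like cells of cortex, with 6 to 49 in a pool, Dlx1 was at 389 to 823 and Sp8 at 202 to 827 across pools. The 823 comes from 9 UMIs in the pool of 6 cells. Over all these cells Sox11 was at 902 and Sox4 at 1237, below their ranges in striatal neuroblast-like cells, and Dlx6 at 171, above its range.

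Within astrocyte-like cells Sox11 and Sox4 were higher in striatum and Sox2 was not. In UMIs summed over pools, Sox11 was at 201 in striatum and 45.6 in cortex, and Sox4 at 196 and 40.5. The log2 differences were 1.98 ± 0.18 (SE; edgeR quasi-likelihood, Benjamini-Hochberg adjusted p = 1.16e-09) and 2.45 ± 0.20 (adjusted p = 2.254e-10). Sox2 was at 652 and 655, with a difference of -0.08 ± 0.15 (adjusted p = 0.73, edgeR). Dlx2 was also called (adjusted p = 7.218e-07, edgeR), with 94 UMIs in striatal and 2 in cortical astrocyte-like cells, a ratio of 36.9 with an exact 95% interval of 9.94 to 309.4 that covers counting error only. Over all 10375 genes tested, 33.4% were called and 17.7% were higher. Dlx2 reached the minimum count through the striatal pools alone and could be called in that direction only, and the other 5 of the 9 did not reach it. Microglia-like cells of striatal late replicate 1 held more Dlx2 (23.6) than its astrocyte-like cells (18.9), and the other 5 pools held less. The part of free RNA and of the Gfap-led cluster in these differences was not tested.

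Interneuron-like cells showed both directions. Of the 9 genes, 3 were higher in striatum and 5 lower, where 34.2% of 13102 genes were called, 17.9% of all higher and 16.2% lower. Sp8, 1 of the 5 lower, was 0 to 2.22 in striatum and 33.5 to 56.0 in cortex, without overlap. Its log2 difference was -5.67 ± 0.32 (SE; edgeR quasi-likelihood, Benjamini-Hochberg adjusted p = 9.544e-11). With 11 UMIs in striatal interneuron-like cells, Sp8 reached the minimum count through the cortical pools alone and could be called in that direction only. Dlx1 was 21.7 to 42.9 against 152 to 240 (-2.40 ± 0.10, adjusted p = 1.004e-12, edgeR). Sp9 went the other way, at 134 to 195 against 38.5 to 80.1 (1.52 ± 0.10, adjusted p = 1.303e-09, edgeR). The class held different clusters in each region. In cortex, Sp8 was 38.2 to 128.8 in clusters led by Vip, Ndnf, Npy and Cnr1, 4.995 in one led by Penk, and 0 to 0.619 in those led by Sst, Pvalb and Crhbp. The striatal clusters, all with the marker Lhx6, held 0.544 to 1.18, and a striatal cluster led by Vip and Calb2, which stayed unnamed, held 17.4. Sp9 in the cortical Crhbp and Nos1 cluster was 189, against 183 in the striatal cluster led by Sst, Npy and Nos1. The part of this makeup in the differences of the class was not tested.

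Smaller differences in interneuron-like cells were seen for Dlx2 (-0.89 ± 0.12 SE), Dlx5 (-0.61 ± 0.14) and Sox2 (-0.58 ± 0.11), all lower in striatum, and for Sox11 (0.85 ± 0.11) and Sox4 (0.43 ± 0.12), both higher. The edgeR Benjamini-Hochberg adjusted p of Sox4 was 0.01131, and it rose to 0.05002 without cortical control replicate 2. Dlx6 did not pass, at 30.1 to 40.9 in striatum and 39.6 to 50.8 in cortex (-0.12 ± 0.10, adjusted p = 0.3893, edgeR). The interneuron-like cells of striatum were themselves mixed: Sox2 was at a median of 182 in the cluster led by Sst, Npy and Nos1 and at 16.4 and 7.93 in the clusters led by Igfbp4 and by Trh, where Sp9 was at 183 and 86.7.

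**Figure D4:**
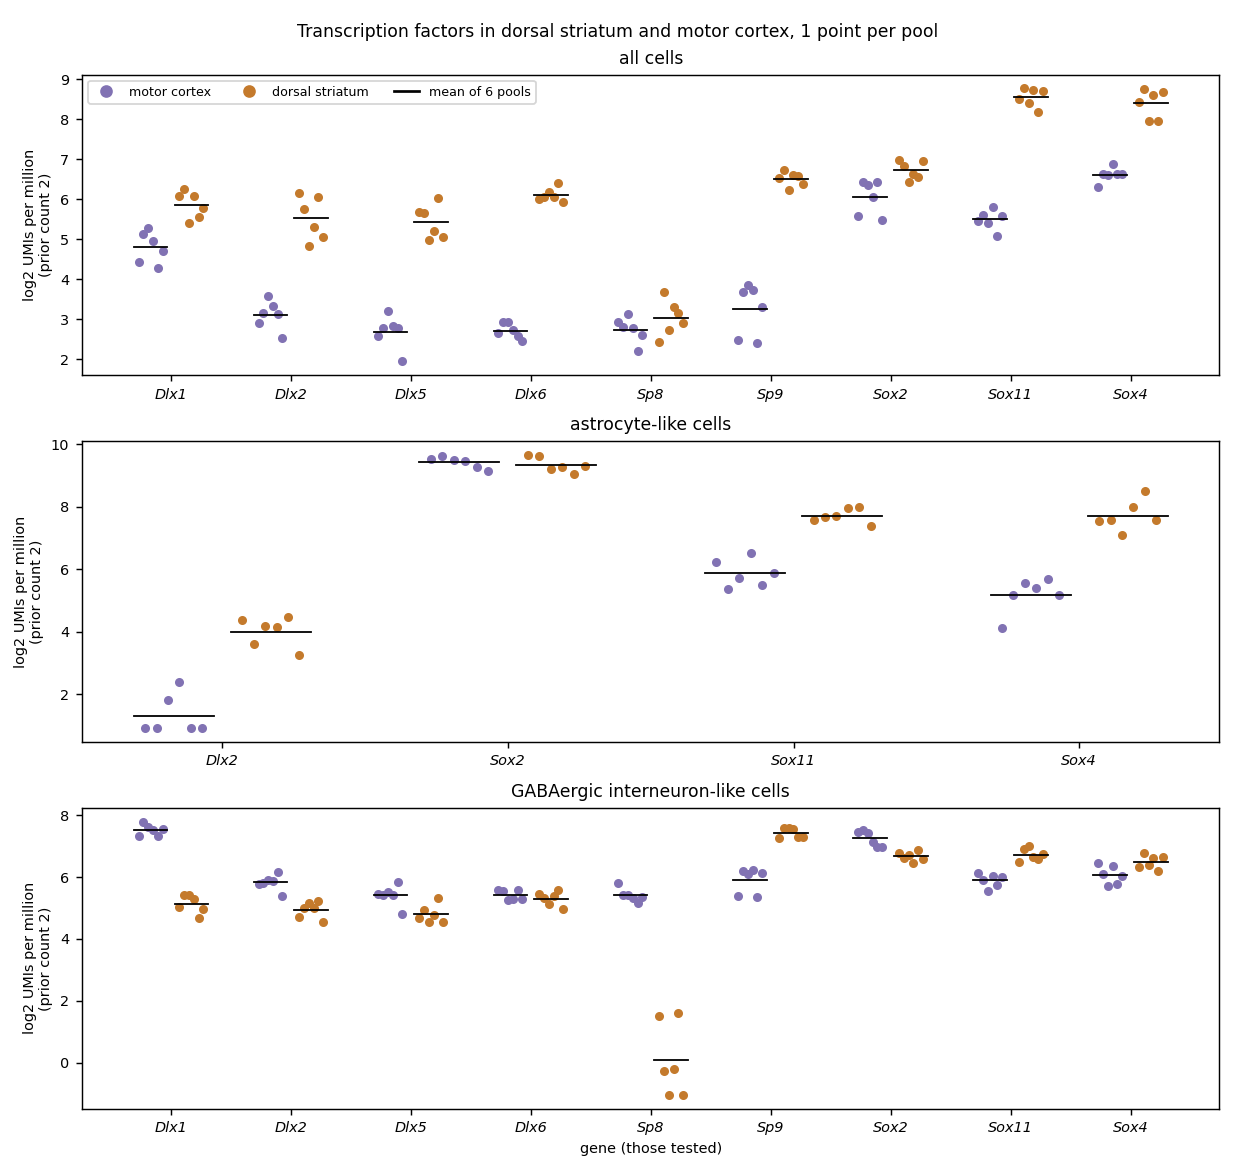
Level in dorsal striatum (orange) and motor cortex (purple) as log2 CPM with a prior count of 2, 1 point per pool and the mean of 6 pools as a line, in all cells (top), astrocyte-like cells (middle, genes tested) and GABAergic interneuron-like cells (bottom). In interneuron-like cells Sp8 and Dlx1 lie lower and Sp9 higher in striatum, with no overlap of pools.

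Other genes of the pathway were counted in the same way. Over all cells, where 24.2% of the genes tested were higher in striatum and 22.1% lower, 16 of 25 stem cell and transit-amplifying regulators were higher in striatum and 2 lower, with a median log2 difference of 0.86 against 0.04 over all genes. The smallest adjusted p-values were those of Sox1 (1.99 ± 0.15 SE) and Thbs4 (4.17 ± 0.36), both higher, and of Id2 (-1.54 ± 0.15). Of 33 neuroblast genes 21 were higher and 7 lower (median 0.55), led by St8sia2, which adds polysialic acid to NCAM (4.35 ± 0.16), Meis2 (2.87 ± 0.12) and Pbx3 (3.41 ± 0.14). Of 13 striatal neuron transcription factors 10 were higher and 1 lower, of 5 GABA genes 4 were higher, of 18 other Sox and Sp genes 8 were higher and 1 lower, and of 3 antisense or overlapping transcripts 2 were higher.

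Within astrocyte-like cells, where 17.7% of the genes tested were higher and 15.7% lower, 12 of 23 stem cell regulators tested were higher in striatum and 2 lower (median 0.53 against 0.00 over all genes). Thbs4 was 5.04 ± 0.30 (SE) log2 units higher and Olig2 lower at -1.94 ± 0.19. The striatal class includes the cluster led by Gfap and Thbs4, where Thbs4 was at 261 over all its cells against 28.7 in the largest astrocyte-like cluster, and no cortical cluster had either gene among its 10 leading genes. The part of that cluster in these differences was not tested. Of 22 neuroblast genes 7 were higher and 4 lower, of 7 striatal neuron factors 4 were higher, of 4 GABA genes 2 were higher and 1 lower, and of 13 other Sox and Sp genes 2 were higher, Sp5 among them (3.80 ± 0.43), and 1 lower. In interneuron-like cells, where 17.9% were higher and 16.2% lower, 3 of 17 stem cell regulators were higher and 9 lower, 12 of 28 neuroblast genes higher and 12 lower, 3 of 5 GABA genes lower, and 4 of 9 striatal neuron factors higher. Of 10 other Sox and Sp genes 2 were higher and 1 lower, with Sox6, a factor of Sst and Pvalb interneurons, at 2.74 ± 0.14 (SE). Of the antisense transcripts, Dlx6os1 was lower at -1.16 ± 0.10 and Dlx1as at -0.60 ± 0.17.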

How the data were processed

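The deposited tables were UMI counts by gene and barcode, not normalized, made with 10x Genomics 3′ kits (version 2 or 3, not given per library) and, per the submitters' processing notes, Cell Ranger 3.1.0 and the builds GRCm38 and mm10. Counts of 23 libraries were used. Kept barcodes had 500 genes and 1000 UMIs or more and no more than 20% of UMIs from mitochondria. Scrublet scores (scanpy 1.11.5) ranked likely doublets, of which the top 0.8% per 1000 barcodes were removed. Cells were clustered (leidenalg 0.10.2) without the 9 genes, and clusters named from markers. Of 45 striatal clusters, 12 stayed unnamed (4308 cells), 3 of them because of projection neuron RNA. Per 1e6 pairs of barcodes, libraries shared a median of 1.32 within barcode class A, 0.254 within class B and 0.0206 between classes.

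UMIs were summed per pool and state with at least 20 cells in every pool and tested with edgeR 4.0.16 (TMM, filterByExpr, quasi-likelihood, R 4.3.3). Stage was fitted with barcode class, hemisphere with the pool as a block, and region with stage and barcode class. A call needed a Benjamini-Hochberg adjusted p below 0.05. The test was run on simulated data first. DESeq2 1.42.0, other filters and pools left out in turn were alternatives. The genes and lists were chosen with earlier results of these data known. The 9 genes were named whatever their values, at most 3 called genes of each other list by adjusted p, and the 3 genes with the most similar pattern. Where fewer are given, the first were taken, and 1 gene that the rule would name is not reported here. Genes named for the clusters are their leading genes or markers.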

Additional observations from a re-analysis of the deposited data

Results flagged for a closer look

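Of 41 groups of 6 pools checked for a pool far from the others, 2 were found, about the share that chance gives (about 1 in 20 groups). Sp9 in astrocyte-like cells was 25.9 CPM in late replicate 1, against 8.91 in the next pool. Sp8 in spiny projection neuron-like cells was 0.838 in the same pool, against 0.313 in the next. Microglia-like cells of late replicate 1 held Sp9 at 17.7 and Sp8 at 4.71, the highest of the 6 pools, and their part in these values was not tested.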

How the results depend on the processing

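The steps between states kept their counts of genes within 1.5 times under all alternatives but 1: with the stricter cell filter (1000 genes, 2000 UMIs, 10% mitochondrial) 4 and not 7 genes were higher in neuroblast-like than in cycling progenitor-like cells, with Dlx1, Dlx2 and Sox11 no longer higher in every pool. Under that filter Sox2 was also no longer lower in every pool from neuroblast-like to interneuron-like cells. In the 4 class B pools alone, chosen after seeing the data, Dlx6 and Sox2 were also higher at this step and Dlx6 was lower from neuroblast-like to interneuron-like cells, as it was without control replicate 1.

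Counts of called genes over the 5 states moved widely with the settings. At early against control 23 genes were called, against 412 with no filter on low counts, 44 with DESeq2, 0 with no class covariate, 91 with the stricter cell filter, and 80 to 421 with 1 pool left out (0 to 1 of the 9 genes). At late against control the 36 became 529 with no filter (1 of the 9 genes, Sox4 in spiny projection neuron-like cells), 3 with DESeq2, 0 with no class covariate, 169 with the stricter filter, 19 with doublets removed at 1.6%, and 67 to 776 with 1 pool left out (0 to 0 of the 9). At late against early the 5 became 606 with no filter (1 of the 9, the same gene and state), 11 with DESeq2, 0 with no class covariate, 99 with the stricter filter, 3 with a gate on cells, and 27 to 576 with 1 pool left out (0 to 1). With the replicate number as a block in place of the barcode class, 3, 0 and 0 genes were called in the 3 comparisons. Replicate numbers did not pair the pools: deviations of same-numbered pools correlated at 0.706 to 0.836 between control and late, where both replicates 1 are class A, but at -0.433 to -0.16 between control and early. Between hemispheres, 20 genes became 2 with DESeq2 and 3 to 28 with 1 pool left out (0 to 1 of the 9); the stricter cell filter left too few cells in some states for a sum.

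Between regions, 7 of the 9 genes were higher in astrocyte-like cells with no filter on low counts, as part of 4009 genes called in either direction, and 3 to 5 were called with 1 pool left out. Dlx5 and Dlx6 had 0 cortical UMIs there and Sp9 had 1, so these could be called in that direction only. The genes called there were 2137 with no class covariate and 2518 to 4006 with 1 pool left out, and 2865 in interneuron-like cells with no class covariate, where 7 to 8 of the 9 were called with 1 pool left out. Sp8 over all cells turned to -0.54 with the stricter cell filter. Sox4 in interneuron-like cells lost its call with no class covariate (edgeR adjusted p = 0.0518). The cause of these shifts was not tested.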
